A study of Mus musculus with 15 samples.

Results

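The 10 genes described here handle zinc in the cell: the metallothioneins Mt1, Mt2 and Mt3, their regulator Mtf1, the zinc exporters Slc30a1 and Slc30a4, and the zinc importers Slc39a6, Slc39a8, Slc39a10 and Slc39a14. They were chosen by name, with their levels in these libraries already known, out of 27179 genes in the count table, and all 10 were found there. Their levels are therefore given as a description, with errors and with no test. The other zinc transporters and the related gene lists further on were tested.

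Metallothioneins are small proteins rich in cysteine that bind zinc and copper. When free zinc rises, the zinc-finger factor MTF-1, encoded by Mtf1, binds metal response elements in their promoters and switches them on, and glucocorticoids and inflammatory cytokines can also raise them. SLC30 (ZnT) proteins move zinc out of the cytosol, to the outside or into vesicles, and SLC39 (ZIP) proteins move it in. In T cells, zinc entering through ZIP proteins takes part in signalling after the antigen receptor is engaged.

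RNA was sequenced from mouse CD4 T cells kept in 3 conditions, Tfh (T follicular helper), Th17 and Th1, with 5 libraries each. All 3 groups carried the alleles B6.Cg-Ifngtm3.1Lky-Il17atm1.1Lky, altered Ifng and Il17a genes whose names denote cytokine reporters, and all started as naive cells cultured for 3.5 days in cRPMI on plates coated with antibodies to CD3 and CD28. The sort by flow cytometry took CXCR5+ IL-17A- cells for Tfh and interferon gamma+ cells for Th1, as the design text has it; sources used here give neither the gate for Th17 nor the differentiating cytokines. Whether the 5 libraries of a condition came from separate mice or cultures is not labelled, so errors and p-values cover the spread among these libraries alone, and it may be technical.

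Total counts ran between 4871468 and 12179250 in Tfh, 8823265 and 11614153 in Th17, and 7339816 and 25200382 in Th1 libraries, and the shallowest was Tfh replicate 1. All 4 CD4 T cell markers (Cd3e, Cd3g, Cd4, Cd28) were found, with a summed level of 3062 to 4207 CPM (read counts scaled to a common library size, after TMM scaling) in Tfh, 2859 to 3608 in Th17 and 2250 to 2591 in Th1 libraries. Of the genes used for sorting, Cxcr5 and Ifng followed the labels: Cxcr5 was at 156 to 192 CPM in Tfh, 31.9 to 44.2 in Th17 and 7.84 to 12.8 in Th1 libraries, and Ifng reached 692 to 1001 CPM in Th1 libraries, with at most 0.790 in Tfh and 1.02 in Th17 libraries. Il17a was highest in Th17 libraries, at 189 to 254 CPM, with at most 0.170 CPM in Th1 libraries. The Tfh libraries, sorted as IL-17A-, still held 4.83 to 20.3 CPM of Il17a. Among other cell types, the 2 erythroid markers had no count. The 3 B cell markers summed to at most 2.59 CPM and the 4 myeloid markers to at most 3.09 CPM, both in Tfh libraries, and the 2 NK markers to at most 0.740 CPM. The 2 CD8 markers summed to 5.22 to 11.3 CPM in Tfh, 6.18 to 16.0 in Th17 and 7.28 to 26.1 in Th1 libraries, where Cd8a had no count in Tfh and 1.12 to 10.4 CPM in Th1 libraries. The part of these differences in the results was not tested. In bulk RNA, fewer cells that express a gene and less of its RNA per cell cannot be told apart.

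Mt1 and Mt2 were low in Tfh cells and high, at overlapping levels, in both Th17 and Th1 cells, while Mt3 was found at more than trace levels in Th1 cells only. These genes lie side by side on chromosome 8 within 43.1 kb, in the order Mt4, Mt3, Mt2, Mt1 (chr8:94137204-94180327 on GRCm38.p6, plus strand), so the sequence before each start is shown first. The RefSeq promoter table gives 250 bases before each annotated start, on the plus strand, at chr8:94178839-94179088 for Mt1, chr8:94172368-94172617 for Mt2 and chr8:94152357-94152606 for Mt3. Capitals mark the core of a metal response element, searched as TGCACNC and TGCGCNC on both strands (the reverse strand reads GNGTGCA or GNGCGCA).
Mt1, before the start: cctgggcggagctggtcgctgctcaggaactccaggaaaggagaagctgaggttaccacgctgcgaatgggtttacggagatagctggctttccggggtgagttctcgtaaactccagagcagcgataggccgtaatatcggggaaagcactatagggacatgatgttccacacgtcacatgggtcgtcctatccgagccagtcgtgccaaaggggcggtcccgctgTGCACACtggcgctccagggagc
Mt1, first 30 bases after it: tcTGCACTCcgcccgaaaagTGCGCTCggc
Mt2, before the start: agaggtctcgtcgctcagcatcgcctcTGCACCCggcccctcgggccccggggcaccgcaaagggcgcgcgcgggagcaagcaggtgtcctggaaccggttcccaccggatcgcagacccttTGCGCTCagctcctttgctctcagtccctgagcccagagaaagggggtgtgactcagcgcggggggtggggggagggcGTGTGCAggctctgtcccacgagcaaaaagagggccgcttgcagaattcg
Mt2, first 30 bases after it: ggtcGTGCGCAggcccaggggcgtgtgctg
Mt3, before the start: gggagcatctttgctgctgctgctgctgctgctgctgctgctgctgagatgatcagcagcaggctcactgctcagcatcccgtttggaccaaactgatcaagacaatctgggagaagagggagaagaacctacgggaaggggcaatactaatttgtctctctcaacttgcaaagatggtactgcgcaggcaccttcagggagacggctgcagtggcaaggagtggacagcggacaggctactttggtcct

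The window of 250 bases before and 50 after the start held 4 cores in Mt2, at positions -223, -128, -50 and 5 from the start, and 3 in Mt1, at -23, 3 and 21. In Mt3 it held 1 core, at 28, inside the annotated transcript and outside the stretch printed. The start that the table uses for Mt1 lies inside the interval of the gene, and bases beyond these windows were not searched. Positions hold for the annotated starts alone, and where transcription starts in these cells was not tested. A core given after an annotated start may thus lie before the start in use. Of all 32851 promoter windows of 300 bases, 25.7% held at least 1 core, 1.97% at least 3 and 0.517% at least 4. Among the other genes, Slc30a4 held 3 cores, Slc30a1 held 2 and the second start of Slc39a8 held 1, while the first start of Slc39a8, both starts of Slc39a10 and Mtf1 held none. A match is a run of letters and not a site shown to be bound, and windows for Slc39a14 and Slc39a6 were not used here.

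**Figure D1:**
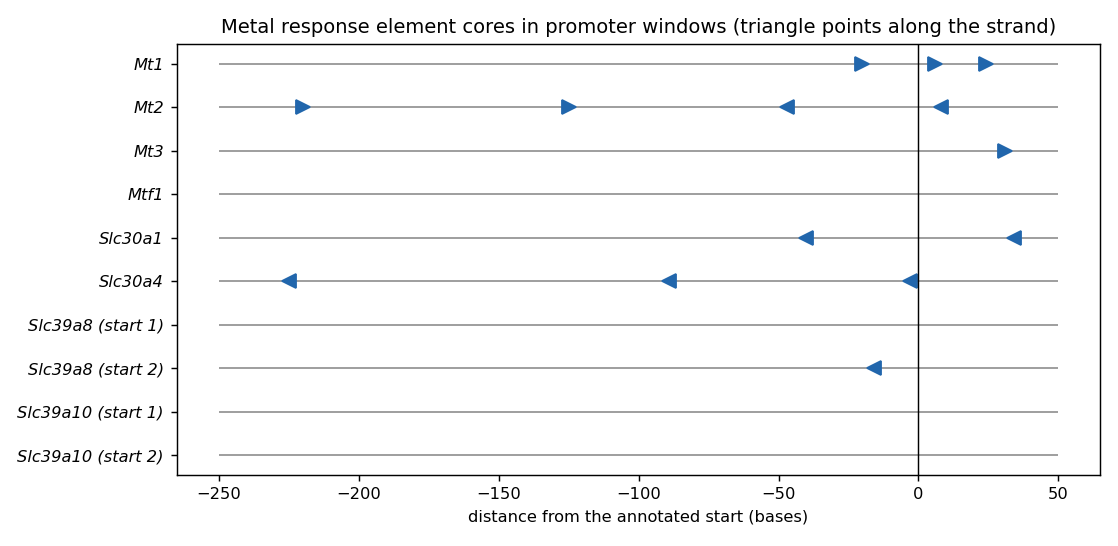
Metal response element cores in the promoter windows of 8 of the 10 genes, by distance in bases from the annotated start (vertical line); triangles point along the strand of the match. Mt2 holds 4 cores and Mt1 and Slc30a4 hold 3 each, whereas Mtf1 and Slc39a10 hold none.

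Mt1 (gene ID 17748; chromosome 8, 94178883 to 94180327) encodes the metallothionein found in nearly all mouse tissues. Its level in replicates 1 to 5 was 26.5, 29.1, 43.4, 42.1 and 31.1 CPM in Tfh cells, 368, 490.0, 392, 606 and 447 CPM in Th17 cells, and 288, 348, 545, 375 and 304 CPM in Th1 cells. Every Tfh library lay below every Th17 and Th1 library, while the Th17 and Th1 libraries overlapped. The means were 34.4 ± 7.76 CPM in Tfh, 461 ± 94.0 CPM in Th17 and 372 ± 103 CPM in Th1 cells (SD, n = 5, as for every mean below). The log2 fold change was -3.74 ± 0.21 for Tfh against Th17 (SE, as for every log2 fold change below), a level 13.3-fold lower. It was -3.43 ± 0.21 for Tfh against Th1, 10.8-fold lower, and 0.31 ± 0.19 for Th17 against Th1. With each library left out in turn, the first of these ran from -3.82 to -3.60 and the second from -3.55 to -3.27.

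Mt2 (17750; 94172618 to 94173567), the second widely expressed metallothionein, had the same pattern at a lower level. It was at 6.37, 7.06, 8.49, 7.66 and 6.02 CPM in Tfh cells, 97.3, 129.6, 95.9, 180.1 and 123 CPM in Th17 cells, and 128, 93.1, 173, 137 and 104 CPM in Th1 cells. The Tfh libraries again lay below all others, and the Th17 and Th1 libraries covered the same range. The means were 7.12 ± 0.992 CPM in Tfh, 125 ± 34.2 CPM in Th17 and 127 ± 31.3 CPM in Th1 cells. Its log2 fold change was -4.13 ± 0.22 for Tfh against Th17, 17.5-fold lower, -4.15 ± 0.22 for Tfh against Th1, 17.7-fold lower, and -0.02 ± 0.19 for Th17 against Th1. An antisense gene, Gm45774, overlaps Mt2 and shares 45.5% of its 50-base stretches in the GENCODE annotation; the strand setting of the counting is not given in the sources used here, so reads from these genes cannot be told apart.

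The level of Mt2 relative to that of Mt1 averaged 0.211 in Tfh libraries (0.182 to 0.243), 0.269 in Th17 libraries (0.245 to 0.297) and 0.348 in Th1 libraries (0.267 to 0.446), as a ratio of CPM values. The library with the most Mt1 in a condition was also the one with the most Mt2: replicate 3 in Tfh, replicate 4 in Th17 and replicate 3 in Th1. The library with the least differed in each condition. For Mt1 it was replicate 1 in Tfh, Th17 and Th1, and for Mt2 replicate 5 in Tfh, replicate 3 in Th17 and replicate 2 in Th1. The trend of levels with GC moved single libraries by -0.43 to 0.45 on the log2 scale for Mt1 and by -0.32 to 0.33 for Mt2. Its part in this order was not tested. With 5 libraries in a condition and conditions that stand apart, no correlation between the genes was computed.

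Mt3 (17751; 94152607 to 94154148), known mainly from the brain, where it was first described as a growth inhibitory factor, was found almost only in Th1 cells. It had no count in any Tfh library, 0.702, 0.846, 0.170, 0.283 and 0 CPM in Th17 libraries, and 19.5, 33.2, 65.6, 63.2 and 41.0 CPM in Th1 libraries. The Th17 values came from 19 reads in all, and the Th1 values from 3200. The Th1 mean was 44.5 ± 19.8 CPM, against 0.400 ± 0.360 CPM in Th17 cells. With a floor of 3 counts over the 5 Tfh libraries, the Tfh level was 748-fold lower than in Th1 cells and 5.46-fold lower than in Th17 cells. On the log2 scale these values were -9.55 and -2.45. With single libraries left out they ran from -9.66 to -9.11 and from -2.79 to -1.95, so they are not firm lower limits. The Tfh and Th17 libraries overlapped, since Th17 replicate 5 had no count either. Th17 against Th1 gave a log2 fold change of -6.85 ± 0.56, a level 116-fold lower. The values at the floor, here and for Mt4 below, allow for counting error only in the condition without reads. They take the reads of the other condition as exact. These values and the intervals below take in counting error alone: PCR copies of a molecule are counted as separate reads. Mt3 passed the filter on low counts through its Th1 libraries.

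Mt4 (chromosome 8, 94137204 to 94139031), a metallothionein of stratified epithelia, was looked at because it completes the cluster. It had no count in Tfh or Th17 libraries and 85 counts in Th1 libraries, at 0.762 to 2.66 CPM. At the same floor, its level was 19.9-fold lower in Tfh and 23.1-fold lower in Th17 than in Th1 cells. It did not pass the filter on low counts. Genes on either side of the cluster, chosen after their values were seen, showed smaller differences. Among Nudt21, Ogfod1, Bbs2, Nup93 and Herpud1, only Nup93 fell in Tfh against Th17, to 64.7 CPM in Tfh, against 102 CPM in Th17 (log2 fold change -0.66 ± 0.12, edgeR adjusted p = 0.000895). In Tfh against Th1, Herpud1 fell (-0.72 ± 0.15, edgeR adjusted p = 0.00052) and Nudt21 fell (-0.84 ± 0.34, edgeR adjusted p = 0.0488), and in Th17 against Th1 only Nup93 changed, rising by 0.59 ± 0.12 (edgeR adjusted p = 0.000726).

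**Figure D2:**
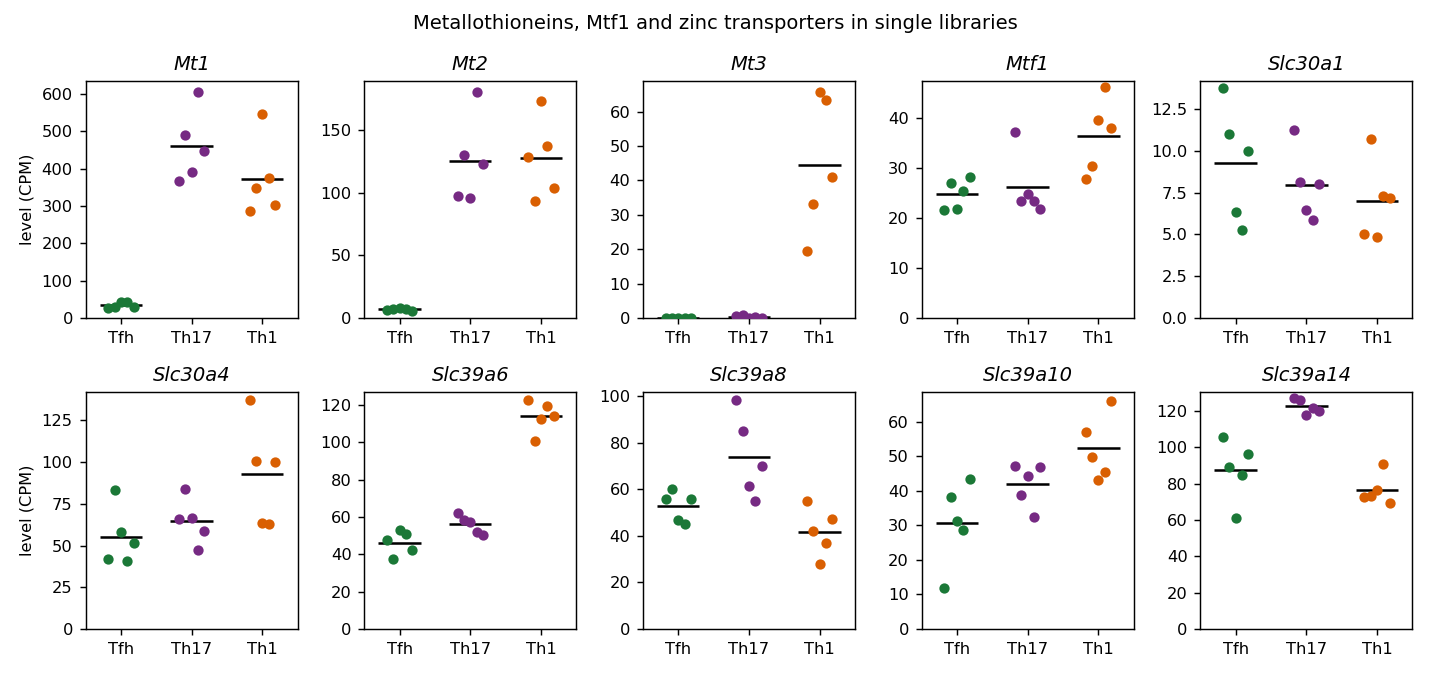
Level in CPM of each of the 10 genes in each of the 15 libraries, as points by condition (Tfh, Th17, Th1), with the mean of 5 libraries as a line; each panel has its own axis from 0. Mt1 and Mt2 separate Tfh from both other conditions, Mt3 separates Th1 from both others, and Slc39a14 is highest in Th17.

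Mtf1 (17764; chromosome 4, 124802549 to 124849800), which encodes the zinc sensor of this system, was at 21.6 to 28.2 CPM in Tfh, 21.9 to 37.3 CPM in Th17 and 27.9 to 46.3 CPM in Th1 libraries, and these ranges overlapped in every pair. Its means were 24.9 ± 2.99 CPM in Tfh, 26.2 ± 6.30 CPM in Th17 and 36.5 ± 7.40 CPM in Th1 cells. The log2 fold change was -0.07 ± 0.18 for Tfh against Th17, where Mt1 differed by -3.74, and -0.55 ± 0.18 for Tfh against Th1. It was -0.48 ± 0.18 for Th17 against Th1. The first of these values turned positive, to 0.09, without Th17 replicate 1, the library with the highest Mtf1 level. Of its 50-base stretches, 8.86% are shared with an overlapping gene, 1110065P20Rik.

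Slc30a1 (22782; chromosome 1, 191906697 to 191913248) encodes ZnT1, the main zinc exporter of the plasma membrane and itself a target of MTF-1. It was the lowest of the 6 transporters, at 5.27 to 13.7 CPM in Tfh, 5.84 to 11.2 CPM in Th17 and 4.83 to 10.7 CPM in Th1 libraries. Its mean was 9.27 ± 3.45 CPM in Tfh, 7.94 ± 2.09 CPM in Th17 and 7.002 ± 2.37 CPM in Th1 cells, so Tfh cells, which had the least Mt1, did not have the least Slc30a1. The log2 fold changes were 0.21 ± 0.30 for Tfh against Th17, 0.39 ± 0.30 for Tfh against Th1 and 0.18 ± 0.30 for Th17 against Th1, each within 2 SE of 0. An antisense gene, 1700034H15Rik, shares 8.08% of its 50-base stretches.

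Slc30a4 (22785; chromosome 2, 122681233 to 122702663) encodes ZnT4, which loads vesicles with zinc and is mutated in the lethal milk mouse. Its level was 40.8 to 83.1 CPM in Tfh, 47.2 to 84.2 CPM in Th17 and 62.8 to 137 CPM in Th1 libraries. The means were 55.1 ± 17.3 CPM in Tfh, 64.6 ± 13.5 CPM in Th17 and 93.0 ± 31.1 CPM in Th1 cells, with overlapping libraries in every pair. Log2 fold changes were -0.23 ± 0.23 for Tfh against Th17, -0.75 ± 0.23 for Tfh against Th1 and -0.52 ± 0.23 for Th17 against Th1. At its GC content of 41.2%, the trend of levels with GC moved single libraries by -0.50 to 0.54 on the log2 scale, and the Tfh against Th1 value was -0.77 with that trend removed.

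The 4 importers fell into 2 patterns: Slc39a6 and Slc39a10 were highest in Th1 cells and lowest in Tfh cells, and Slc39a8 and Slc39a14 were highest in Th17 cells and lowest in Th1 cells. Slc39a6 (106957; chromosome 18, 24579881 to 24603817) encodes ZIP6, which in human T cells has been tied to zinc entry on activation. It was at 47.5, 37.4, 52.9, 51.0 and 42.2 CPM in Tfh cells, 62.2, 58.5, 57.4, 51.9 and 50.2 CPM in Th17 cells, and 123, 101, 112, 119.5 and 114 CPM in Th1 cells. All Th1 libraries lay above all others, and the Tfh and Th17 libraries overlapped. The means were 46.2 ± 6.40 CPM in Tfh, 56.0 ± 4.96 CPM in Th17 and 114 ± 8.42 CPM in Th1 cells. Slc39a6 had a log2 fold change of -1.30 ± 0.13 for Tfh against Th1, 2.47-fold lower, -1.03 ± 0.13 for Th17 against Th1, 2.04-fold lower, and -0.28 ± 0.13 for Tfh against Th17.

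Slc39a10 (227059; chromosome 1, 46807544 to 46925776), which encodes ZIP10, the closest relative of ZIP6 and known for its part in B cell survival, had the same order of means with wider spread. It was at 11.97, 38.3, 31.4, 28.7 and 43.3 CPM in Tfh cells, 47.0, 38.7, 44.2, 32.4 and 46.9 CPM in Th17 cells, and 57.0, 49.7, 43.0, 45.4 and 65.9 CPM in Th1 cells. The lowest value came from Tfh replicate 1, the shallowest library. Its means were 30.7 ± 11.95 CPM in Tfh, 41.9 ± 6.28 CPM in Th17 and 52.2 ± 9.32 CPM in Th1 cells, with overlap in every pair. The log2 fold change was -0.76 ± 0.24 for Tfh against Th1 and -0.56 without Tfh replicate 1. It was -0.44 ± 0.24 for Tfh against Th17, or -0.24 without that library, and -0.32 ± 0.24 for Th17 against Th1.

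Slc39a14 (213053; chromosome 14, 70303467 to 70351452) encodes ZIP14, which carries zinc, manganese and iron not bound to transferrin. It was at 106, 88.9, 61.3, 84.6 and 96.3 CPM in Tfh cells, 127, 126, 118, 122 and 120.1 CPM in Th17 cells, and 72.8, 73.3, 76.5, 90.8 and 69.6 CPM in Th1 cells. All Th17 libraries lay above all others, within a range narrower than that of Tfh or Th1. The means were 87.4 ± 16.6 CPM in Tfh, 123 ± 4.04 CPM in Th17 and 76.6 ± 8.29 CPM in Th1 cells. Slc39a14 had a log2 fold change of -0.49 ± 0.14 for Tfh against Th17, 0.19 ± 0.14 for Tfh against Th1 and 0.68 ± 0.14 for Th17 against Th1.

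Slc39a8 (67547; chromosome 3, 135816882 to 135888572) encodes ZIP8, the closest relative of ZIP14, which in human T cells releases zinc from lysosomes. It was at 55.6, 60.3, 46.9, 45.2 and 56.0 CPM in Tfh cells, 98.4, 85.3, 61.2, 54.8 and 70.1 CPM in Th17 cells, and 54.9, 42.1, 27.8, 36.9 and 47.4 CPM in Th1 cells. Its means of 52.8 ± 6.45 CPM in Tfh, 74.0 ± 17.8 CPM in Th17 and 41.8 ± 10.3 CPM in Th1 cells had the order of Slc39a14, but the libraries overlapped in every pair, in Th17 against Th1 just so, with the lowest Th17 library at 54.8 CPM and the highest Th1 library at 54.9 CPM. Slc39a8 had a log2 fold change of -0.49 ± 0.19 for Tfh against Th17, 0.34 ± 0.19 for Tfh against Th1 and 0.83 ± 0.19 for Th17 against Th1.

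Set against Mt1 and Mt2, none of the 6 transporters had their pattern of Tfh libraries below all others beside Th17 and Th1 libraries that overlap. In Tfh against Th17, where Mt1 and Mt2 were 13.3-fold and 17.5-fold lower, the transporters' log2 fold changes ran from -0.49 to 0.21, that is, no more than 1.41-fold lower. In Tfh against Th1 they ran from -1.30 to 0.39. The means were lowest in Tfh cells for Slc30a4, Slc39a6 and Slc39a10, as for Mt1 and Mt2, but highest in Tfh cells for Slc30a1, and lowest in Th1 cells for Slc39a8 and Slc39a14. Counted over all 10 genes, the libraries did not overlap for 3 in Tfh against Th17 (Mt1, Mt2 and Slc39a14, all lower), against 14.5% of all genes tested. In Tfh against Th1 this held for 4 (Mt1, Mt2, Mt3 and Slc39a6, all lower), against 34.2% of all genes tested. In Th17 against Th1 it held for 3 (Slc39a14 higher, Mt3 and Slc39a6 lower), against 28.8% of all genes tested. Since the genes were chosen with their levels known, nothing is read from these counts. The count for Tfh against Th1 was 7 without Tfh replicate 2, and that for Th17 against Th1 was 5 without Th17 replicate 1.

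**Figure D3:**
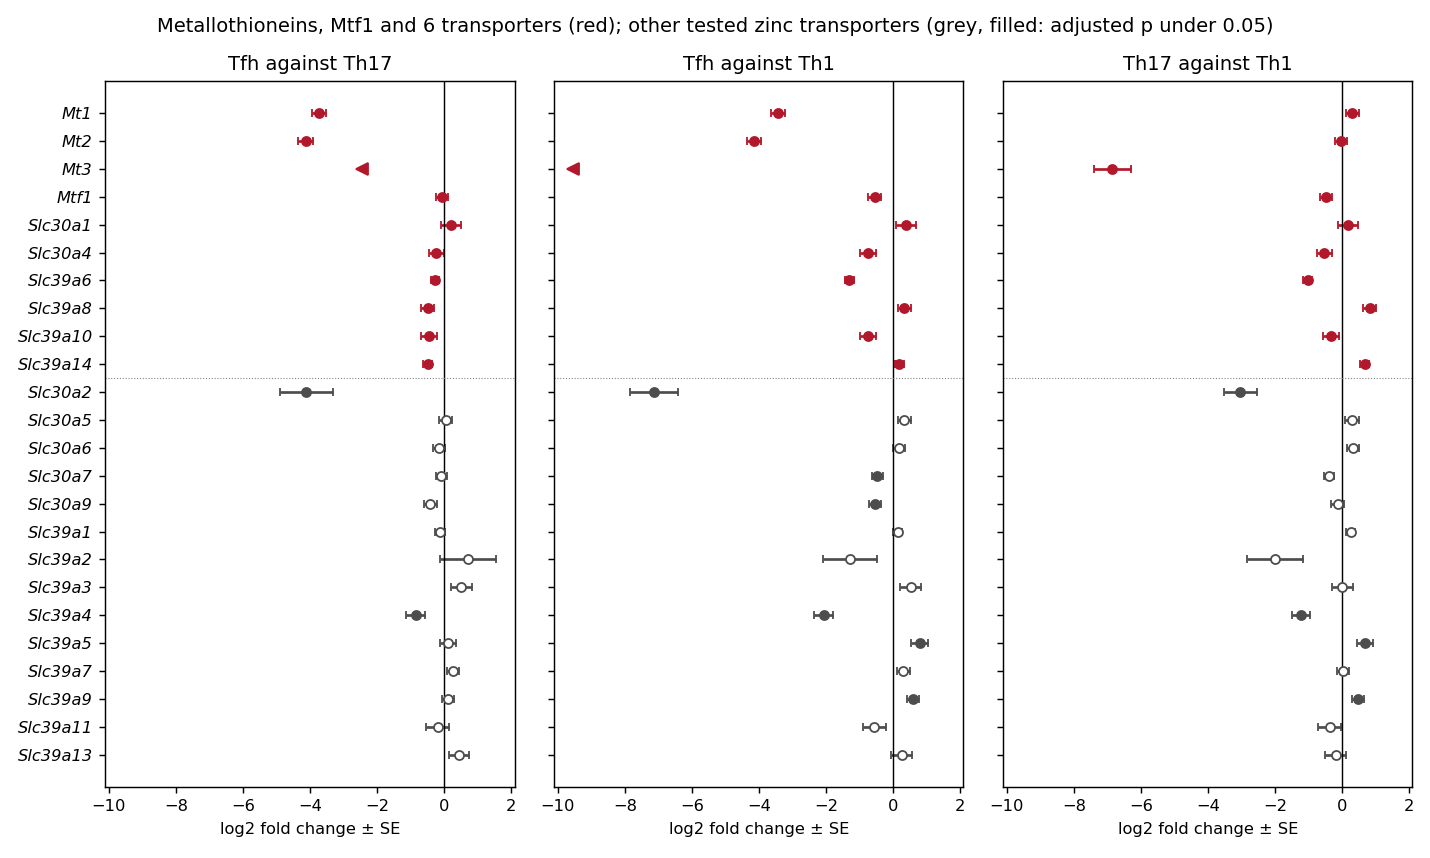
Log2 fold change ± SE in the 3 comparisons, for the 10 genes (red, no test) and the 14 other zinc transporters tested (grey). Grey points are filled where the adjusted p is under 0.05. Triangles mark Mt3 at its floor value, against Tfh libraries with no count. Mt1 and Mt2 lie near -4 in both Tfh comparisons and near 0 in Th17 against Th1, and the transporters among the 10 lie between -1.30 and 0.83.

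The distance between patterns was measured over the 15 libraries as the root mean square difference of log2 CPM, each gene centred on its mean, among 12590 other genes tested. Values were not scaled, so this distance takes in the size of a change as well as its shape. The gene nearest to Mt1 was Mt2, at 0.331, against a median of 1.79 over all genes. After it, by the rule for named genes, came Tgm2 (a transglutaminase) at 0.609, Ccl4 (a chemokine) at 0.648 and Mgarp (a mitochondrial protein) at 0.661. Tgm2 had a mean of 21.3 ± 3.72 CPM in Tfh, 116 ± 13.96 CPM in Th17 and 164 ± 24.3 CPM in Th1 cells. Nearest to Mt2, after Mt1, were Scd1 (a fatty acid desaturase) at 0.603, Igfbp7 (a secreted binding protein) at 0.641 and Mgarp at 0.663. Scd1 was at 8.97 ± 1.23 CPM in Tfh, 138 ± 14.2 CPM in Th17 and 320.4 ± 25.8 CPM in Th1 cells.

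The transporters and Mtf1 lay much farther from Mt1 in this order. Slc39a6 had rank 1366 of 12590, at a distance of 1.46, and Slc39a10 rank 1507, at 1.48. Slc30a4 had rank 2880, Mtf1 3371, Slc39a14 3902, Slc39a8 5778 and Slc30a1 8684. The middle part of all genes, between the lower and upper quartile, spanned 1.61 to 1.99, so that Slc39a6, Slc39a10 and Slc30a4 lay below it and Mtf1, Slc39a14, Slc39a8 and Slc30a1 within it. Mt3, neighbour of Mt2 on the chromosome, had rank 12264, at 2.84. These ranks describe these 15 libraries, which share their 3 conditions. A gene with the shape of Mt1 but a much smaller change would also lie far from it, so a rank does not show a different shape.

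**Figure D4:**
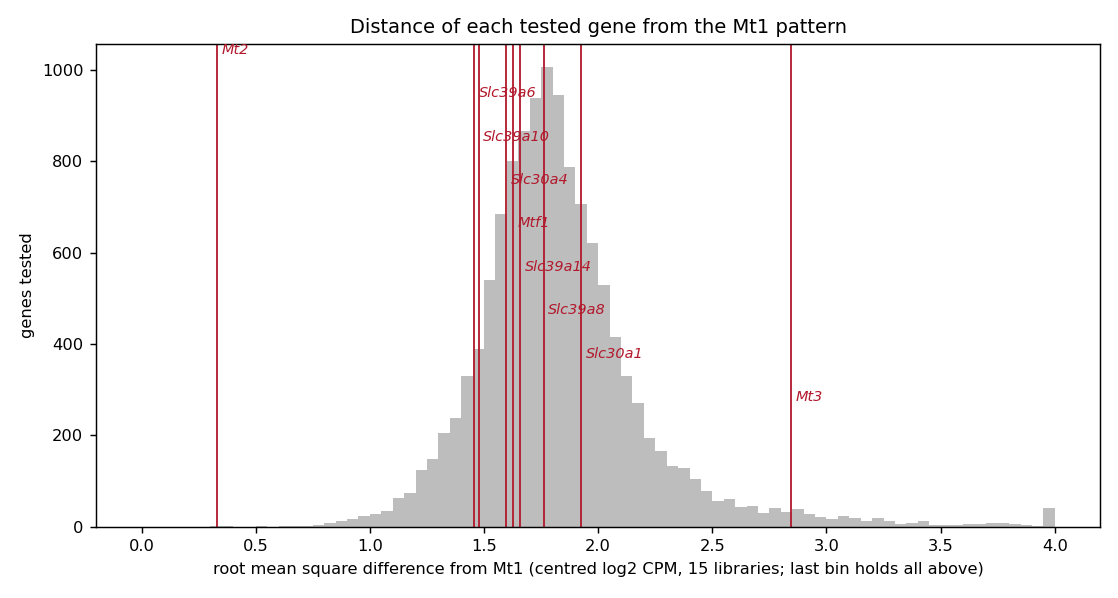
Number of tested genes by their root mean square difference from Mt1 in centred log2 CPM over 15 libraries (grey bars), with the other 9 genes as lines. Mt2 lies at 0.331, apart from nearly all genes, the transporters and Mtf1 lie between 1.46 and 1.93, inside the bulk, and Mt3 lies at 2.84.

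Divided by transcript length, so that genes can be set side by side, Mt1 averaged 62.7 ± 14.1 CPM per kilobase in Tfh, 839 ± 171 in Th17 and 678 ± 188 in Th1 cells. Mt2 averaged 13.9 ± 1.94 CPM per kilobase in Tfh, 245 ± 66.9 in Th17 and 249 ± 61.3 in Th1 cells, and Mt3 reached 83.01 ± 36.9 in Th1 cells. In Th17 and Th1 cells both Mt1 and Mt2 thus stood above every zinc transporter, the highest being Slc39a1 at 29.6 ± 1.28 CPM per kilobase in Th17 and Slc39a6 at 29.4 ± 2.17 in Th1 cells. In Tfh cells Mt1 was still above them, and Mt2 lay among them, below Slc39a1 at 27.3 ± 3.68 CPM per kilobase and close to Slc39a8 at 14.9 ± 1.83. Among the 6 transporters, the level per kilobase in Tfh cells was highest for Slc39a14, at 17.7 ± 3.37, which did not differ from Slc39a8 beyond their spread. Slc39a6 followed at 11.9 ± 1.65 and Slc30a4 at 10.1 ± 3.16, whose spreads overlapped, then Slc39a10 at 5.59 ± 2.17, and Slc30a1 was lowest at 1.77 ± 0.658. Mtf1 was at 3.26 ± 0.392 CPM per kilobase in Tfh, 3.43 ± 0.826 in Th17 and 4.78 ± 0.970 in Th1 cells.

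**Figure D5:**
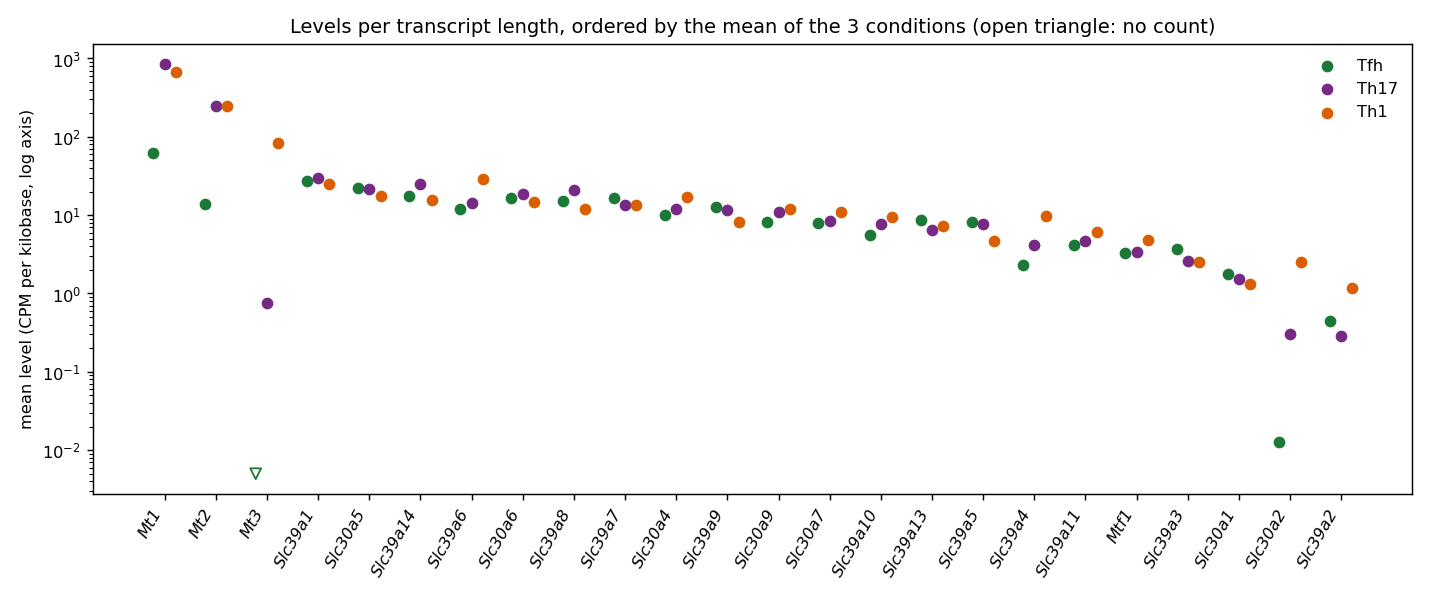
Mean level per transcript length (CPM per kilobase, log axis) of the metallothioneins, Mtf1 and the zinc transporters in Tfh, Th17 and Th1 cells, ordered by the mean of the 3 conditions; the open triangle marks no count. Mt1 and Mt2 stand above all transporters in Th17 and Th1 cells, and in Tfh cells Mt2, at 13.9, lies among the transporters.

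Of the other 18 genes of the SLC30 and SLC39 families, 14 had enough counts to be tested. In Tfh against Th17, 0 of the 14 rose and 2 fell at an edgeR adjusted p under 0.05, against 6.80% of all genes tested that rose and 9.98% that fell (16.8% in either direction), with a median log2 fold change of -0.02 (-0.01 over all genes). Slc30a2, which loads secretory vesicles with zinc and is needed for zinc in milk, fell in Tfh cells, with 2 counts over the Tfh libraries, 49 over the Th17 libraries and 522 over the Th1 libraries. Its mean was 0.0398 ± 0.0890 CPM in Tfh, 0.961 ± 0.466 CPM in Th17 and 7.88 ± 1.64 CPM in Th1 cells. By the ratio of counts its Tfh level was 21.1-fold lower than in Th17 cells (95% exact interval 5.54 to 179; edgeR adjusted p = 0.00125) and 183-fold lower than in Th1 cells (50.4 to 1516; edgeR adjusted p = 1.79e-07). It also fell in Th17 against Th1, with a log2 fold change of -3.03 ± 0.50 (edgeR adjusted p = 9.1e-05). Slc30a2 passed the filter on low counts through its Th1 libraries, and it was not fitted with the strict filter or with the Tfh and Th17 libraries alone, so its call in Tfh against Th17 rests on a fit that holds the Th1 libraries too. Both Tfh counts came from replicate 4, and the fitted log2 fold change was -4.11 against Th17 and -7.13 against Th1 with that library. The fitted values without it, -6.38 and -9.40, rest on no Tfh count and do not measure a larger fall.

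Slc39a4, which takes up zinc in the gut and is mutated in human acrodermatitis enteropathica, followed the same order, at 6.42 ± 2.79 CPM in Tfh, 11.5 ± 2.43 CPM in Th17 and 26.7 ± 6.604 CPM in Th1 cells. It fell in Tfh against Th1 (-2.07 ± 0.29, edgeR adjusted p = 9.07e-06) and in Th17 against Th1 (-1.22 ± 0.28, edgeR adjusted p = 0.00175). Against Th17 it fell by 0.84 ± 0.29 on the log2 scale at the threshold itself (edgeR adjusted p = 0.0499), and that call was lost in 17 of 25 alternatives, with adjusted p-values from 0.00637 to 0.122 over all of them. Leaving out any single Th17 library, Th1 replicates 2 to 5, or Tfh replicates 2, 3 or 4 was enough to lose it.

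In Tfh against Th1, 2 of the 14 rose and 4 fell, against 24.1% of all genes tested that rose and 25.2% that fell (49.3% in either direction), with a median of 0.16 (-0.01 over all genes). Slc39a5, an importer of the gut and pancreas, rose in Tfh cells, to 16.7 ± 2.87 CPM in Tfh, against 9.61 ± 2.06 CPM in Th1 (log2 fold change 0.79 ± 0.25, edgeR adjusted p = 0.0119). Slc39a9, an importer of the Golgi, rose to 65.6 ± 17.3 CPM in Tfh, against 43.1 ± 4.79 CPM in Th1 (0.61 ± 0.18, edgeR adjusted p = 0.00842). Slc30a7, which fills the Golgi with zinc, fell to 72.3 ± 11.3 CPM in Tfh, against 100.4 ± 18.4 CPM in Th1 (-0.47 ± 0.16, edgeR adjusted p = 0.0212). Slc30a9, a mitochondrial zinc transporter, fell to 47.0 ± 7.68 CPM in Tfh, against 68.3 ± 19.9 CPM in Th1 (-0.54 ± 0.19, edgeR adjusted p = 0.0268). The call of Slc30a7 was lost without Th1 replicate 1 or Tfh replicate 1, at an edgeR adjusted p of up to 0.0593. That of Slc30a9 was lost without Th1 replicate 1, Th1 replicate 2 or Tfh replicate 4, at up to 0.0759, and with limma-voom.

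In Th17 against Th1, 2 of the 14 rose and 2 fell, against 19.1% of all genes tested that rose and 17.8% that fell (36.9% in either direction), with a median of -0.06 (0.03 over all genes). The 2 that fell were Slc30a2 and Slc39a4. Slc39a5 rose to 15.4 ± 5.56 CPM in Th17, against 9.61 ± 2.06 CPM in Th1 (0.68 ± 0.24, edgeR adjusted p = 0.035), and Slc39a9 rose to 60.3 ± 9.32 CPM in Th17, against 43.1 ± 4.79 CPM in Th1 (0.48 ± 0.18, edgeR adjusted p = 0.0397). The call of Slc39a5 was lost without Th1 replicates 2, 4 or 5, Th17 replicates 2 or 5, or Tfh replicates 3 or 5, at an edgeR adjusted p of up to 0.15. That of Slc39a9 was lost without Th1 replicates 1, 3, 4 or 5, Th17 replicates 1 to 4, or Tfh replicates 3 or 5, at up to 0.102. Without Th1 replicate 5, Tfh replicate 3 or Tfh replicate 5, only the 2 genes that fell were called.

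Of 5 other genes reported as targets of MTF-1 in mouse, 0 rose and 1 fell in Tfh against Th17, and 2 rose and 2 fell both in Tfh against Th1 and in Th17 against Th1. Of all genes tested, 16.8% were called in Tfh against Th17, 49.3% in Tfh against Th1 and 36.9% in Th17 against Th1. The median log2 fold change of the list was -0.20 in Tfh against Th17, 0.04 in Tfh against Th1 and 0.23 in Th17 against Th1, beside -0.01, -0.01 and 0.03 over all genes tested. Ndrg1, which responds to hypoxia and metals, was lowest in Tfh cells and also differed between Th17 and Th1: it was at 13.0 ± 3.99 CPM in Tfh, 72.9 ± 24.5 CPM in Th17 and 168 ± 39.6 CPM in Th1 cells. It fell in Tfh against Th17 (-2.49 ± 0.24, edgeR adjusted p = 1.74e-06), in Tfh against Th1 (-3.69 ± 0.25, edgeR adjusted p = 7.77e-10) and in Th17 against Th1 (-1.21 ± 0.22, edgeR adjusted p = 0.000324). Selenow, a selenoprotein, and Gclc, the catalytic subunit of the first enzyme of glutathione synthesis, went the other way. Selenow rose to 166 ± 28.2 CPM in Tfh and 168 ± 42.8 CPM in Th17, against 88.7 ± 30.3 CPM in Th1 (edgeR adjusted p = 0.00273 and 0.00339). Gclc rose to 64.7 ± 10.3 CPM in Tfh and 55.7 ± 6.54 CPM in Th17, against 37.5 ± 3.99 CPM in Th1 (edgeR adjusted p = 0.000172 and 0.00404). The other gene that fell against Th1 in both comparisons, named after its values were seen, was Pgf (edgeR adjusted p = 0.00025 for Tfh and 0.0235 for Th17). It had 1 count over the Tfh libraries, 22 over the Th17 libraries and 131 over the Th1 libraries, and passed the filter on low counts through its Th1 libraries. The count for Tfh against Th17 was 2 without Th17 replicate 1 or Th17 replicate 2.

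Metallothioneins also bind copper, and of 9 genes of copper handling 0 rose and 2 fell in Tfh against Th17, 3 rose and 2 fell in Tfh against Th1, and 2 rose and 2 fell in Th17 against Th1. The shares called over all genes tested were 16.8%, 49.3% and 36.9%, and the list's median log2 fold change was -0.25, 0.17 and 0.34 in these comparisons, in the same order. Cox17, which carries copper to cytochrome c oxidase, was at 176 ± 9.70 CPM in Tfh and 209 ± 20.5 CPM in Th17, and fell against the 474 ± 52.4 CPM of Th1 in both comparisons (edgeR adjusted p = 4.96e-09 and 9.67e-08). Sod1, the copper and zinc superoxide dismutase, was at 215 ± 24.3 CPM in Tfh, 273 ± 18.8 CPM in Th17 and 358 ± 34.3 CPM in Th1 cells. It fell in Tfh against Th1 (-0.74 ± 0.11, edgeR adjusted p = 1.98e-05) and in Th17 against Th1 (-0.39 ± 0.11, edgeR adjusted p = 0.00849). It also fell in Tfh against Th17 (-0.34 ± 0.11, edgeR adjusted p = 0.038), a call lost in 13 of 25 alternatives. The other copper gene that fell there, named after its values were seen, was Atp7b, a copper-transporting ATPase of the liver, at 0.254 ± 0.568 CPM in Tfh, 2.18 ± 0.637 CPM in Th17 and 0.954 ± 0.253 CPM in Th1 cells (-3.21 ± 0.92, edgeR adjusted p = 0.021). All 9 of its Tfh counts came from replicate 2, and the other Tfh libraries had none. Atp7b passed the filter on low counts through its Th17 libraries, the higher side of this call. Atp7a, the copper-exporting ATPase, rose to 37.2 ± 4.52 CPM in Tfh and 25.8 ± 7.05 CPM in Th17, against 14.6 ± 5.09 CPM in Th1 (edgeR adjusted p = 0.000129 and 0.011). Slc31a2, a low-affinity copper transporter, rose to 13.3 ± 2.55 CPM in Tfh, against 6.40 ± 2.30 CPM in Th1 (edgeR adjusted p = 0.00417). The 2 calls of Tfh against Th17 were 0 without Th17 replicate 5, Tfh replicate 4 or Tfh replicate 5, and 1 without Th1 replicate 5, Th17 replicates 1, 3 or 4, or Tfh replicates 1 or 2.

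Of 8 tested genes of iron and manganese handling, 0 rose and 2 fell in Tfh against Th17, 1 rose and 4 fell in Tfh against Th1, and 0 rose and 1 fell in Th17 against Th1. Over all genes tested, 6.80% rose and 9.98% fell in Tfh against Th17, 24.1% rose and 25.2% fell in Tfh against Th1, and 19.1% rose and 17.8% fell in Th17 against Th1. Medians of the list's log2 fold change, in that order, were -0.04, -0.38 and 0.08. Tfrc, the transferrin receptor through which cells take up iron, had the condition pattern of Mt1 and Mt2 with a smaller difference. It fell to 153 ± 23.6 CPM in Tfh, against 366 ± 70.5 CPM in Th17 (-1.26 ± 0.19, edgeR adjusted p = 0.000155) and 355 ± 108 CPM in Th1 (-1.22 ± 0.19, edgeR adjusted p = 3.37e-05), and Th17 against Th1 gave 0.04 ± 0.19. Fth1, the heavy chain of the iron store ferritin, fell to 1037 ± 64.8 CPM in Tfh, against 1589 ± 214 CPM in Th17 (edgeR adjusted p = 0.0014) and 1803 ± 249.5 CPM in Th1 (edgeR adjusted p = 2.12e-05). Sod2, the manganese superoxide dismutase of mitochondria, fell to 59.3 ± 4.28 CPM in Tfh, against 104 ± 27.9 CPM in Th1 (edgeR adjusted p = 0.00131). Slc11a2, an importer of iron and manganese, was at 50.2 ± 7.20 CPM in Tfh and 42.2 ± 5.76 CPM in Th17, and fell against the 78.4 ± 16.1 CPM of Th1 in both (edgeR adjusted p = 0.00281 and 0.000241). The gene that rose in Tfh against Th1, named after its values were seen, was Ireb2 (0.52 ± 0.19, edgeR adjusted p = 0.0328). It was at 103 ± 17.0 CPM in Tfh, against 72.0 ± 19.9 CPM in Th1. The count for Th17 against Th1 was 2 without Th1 replicate 3, Th1 replicate 4 or Th17 replicate 1.

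Metallothioneins also rise under oxidative stress, and of 9 genes of the oxidative stress response driven by NRF2, 0 rose and 5 fell in Tfh against Th17, 2 rose and 3 fell in Tfh against Th1, and 2 rose and 1 fell in Th17 against Th1. Over the list the median log2 fold change was -0.50 in Tfh against Th17, -0.68 in Tfh against Th1 and 0.10 in Th17 against Th1. Of all genes tested, 16.8% were called in Tfh against Th17 (9.98% lower), 49.3% in Tfh against Th1 and 36.9% in Th17 against Th1. Without Tfh replicate 3, 3 of the 9 fell in Tfh against Th17. Slc7a11, named after its values were seen, is 1 of the 5 that fell there (edgeR adjusted p = 0.00646). It had 1 count over the Tfh libraries, 36 over the Th17 libraries and 364 over the Th1 libraries. It passed the filter on low counts through its Th1 libraries, so its call in Tfh against Th17 rests on a fit that holds them too. Txn1, thioredoxin, fell to 267 ± 31.9 CPM in Tfh, against 579 ± 54.2 CPM in Th17 (-1.12 ± 0.11, edgeR adjusted p = 2.63e-06) and 665 ± 53.8 CPM in Th1 (-1.32 ± 0.11, edgeR adjusted p = 1.91e-08). Txnrd1, the enzyme that reduces it, fell to 56.8 ± 5.62 CPM in Tfh, against 80.1 ± 10.3 CPM in Th17 (edgeR adjusted p = 0.00927) and 90.7 ± 7.24 CPM in Th1 (edgeR adjusted p = 0.000178). Prdx1, a peroxidase that thioredoxin recharges, was highest in Th17 cells, at 185 ± 32.3 CPM in Tfh, 262 ± 52.7 CPM in Th17 and 139.6 ± 24.4 CPM in Th1 cells, and rose in Th17 against Th1 (0.91 ± 0.16, edgeR adjusted p = 0.000248). It also fell in Tfh against Th17 (-0.50 ± 0.16, edgeR adjusted p = 0.0415), a call lost in 12 of 25 alternatives. Its rise in Tfh against Th1 (0.40 ± 0.16, edgeR adjusted p = 0.04875) was lost in 15 of 25. Gclc, on this list too, is given above.

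Glucocorticoids induce metallothioneins, and of 6 tested genes induced by glucocorticoids 2 rose and 0 fell in Tfh against Th17 and in Tfh against Th1, and 1 rose and 2 fell in Th17 against Th1. These counts stand beside 6.80% of all genes tested that rose in Tfh against Th17, 24.1% that rose in Tfh against Th1, and 19.1% that rose and 17.8% that fell in Th17 against Th1. Their median log2 fold change was 0.15 in Tfh against Th17, -0.27 in Tfh against Th1 and -0.23 in Th17 against Th1, so that median and calls differ in sign in Tfh against Th1. Sgk1, a kinase that glucocorticoids induce, was at 226 ± 16.4 CPM in Tfh, 158 ± 15.7 CPM in Th17 and 4.45 ± 0.936 CPM in Th1 cells. It rose in Tfh against Th17 (0.51 ± 0.13, edgeR adjusted p = 0.00969), in Tfh against Th1 (5.69 ± 0.16, edgeR adjusted p = 1e-14) and in Th17 against Th1 (5.17 ± 0.16, edgeR adjusted p = 4.39e-14). Klf9, a transcription factor that they induce, rose to 22.5 ± 9.004 CPM in Tfh, against 11.5 ± 2.94 CPM in Th17 (0.96 ± 0.26, edgeR adjusted p = 0.015) and 13.3 ± 1.66 CPM in Th1 (0.75 ± 0.26, edgeR adjusted p = 0.021). The other tested genes of the list were named after their values were seen. Tsc22d3 (-0.39 ± 0.15, edgeR adjusted p = 0.0458) and Per1 (-0.72 ± 0.28, edgeR adjusted p = 0.0482) fell in Th17 against Th1. In Tfh against Th1 the log2 fold change was -0.26 for Tsc22d3, -0.56 for Per1, -0.39 for Fkbp5 and -0.27 for Dusp1, and none of these passed. The call of Klf9 against Th1 was lost without Tfh replicate 1 or Tfh replicate 5, at an edgeR adjusted p of up to 0.0775, and the count for Tfh against Th1 was 1 without Tfh replicate 5. That for Th17 against Th1 was 1 without Th1 replicates 3 or 4, Th17 replicates 1, 2 or 3, or Tfh replicate 4. Genes with near-identical copies elsewhere, such as Fth1 and Prdx1, are uncertain here, because the handling of reads that match several genes is not given in the sources used here.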

How the data were processed

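The deposited values are raw counts of reads per gene, listed by the authors under Entrez gene IDs. The submitters' processing notes name STAR 2.7.2b, featureCounts 1.6.4 and the mm10 build; annotation, strandedness and multi-mapped reads: not given in the sources used here. Library preparation took 100 ng of RNA (Lexogen SENSE mRNA-Seq V2), per the labels. RefSeq tables of GRCm38.p6 named 25275 IDs and GENCODE 18, and 1886 had no name. The lowest chi-square per gene between libraries of a condition was 9.51, so none agreed within sampling noise.

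In R 4.3.3, edgeR 4.0.16 (default filter on low counts, 12591 genes left; TMM factors; 1 model of all 15 libraries without covariates; robust two-sided quasi-likelihood test) gave log2 fold changes and Benjamini-Hochberg adjusted p-values over all genes tested, called under 0.05. The script was tested on simulated data. For a gene without any read in a condition, 3 counts summed over its 5 libraries serve as the floor; Slc30a2, with 2 reads, has a Clopper-Pearson 95% interval on its count ratio. Likeness used log2 CPM with a prior count of 2, and lengths are those of GENCODE principal transcripts. The genes and lists were chosen with earlier results of these data known. Named were the 10 genes, every other SLC30 or SLC39 gene that passed a test, Mt4, up to 3 genes per list and comparison with the largest change that passed, did not overlap and reached 10 CPM, and the 4 genes nearest to Mt1 and to Mt2 with a mean of 10 CPM. Alternatives were DESeq2 1.42.0 size factors and Wald test, library size alone, no filter and a strict filter (1 CPM in 10 libraries), limma 3.58.1 (voom), only the conditions compared, a replicate block, a GC correction, both together, a prior count of 0.5, and each library left out.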

Additional observations from a re-analysis of the deposited data

Results flagged for a closer look

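In 111 groups of 5 libraries, checked over 38 genes, 5 had a highest library far from the others (Dixon's test at the 95% level, which chance passes in about 1 of 20 groups). Mtf1 was at 37.3 CPM in Th17 replicate 1, with the next library at 24.8 CPM. Slc30a2 was at 0.199 CPM in Tfh replicate 4, with no count in the other Tfh libraries. Ndrg1 was at 19.9 CPM in Tfh replicate 2, with the next at 12.6 CPM. Tfrc was at 194 CPM in Tfh replicate 1, with the next at 151 CPM. Mgarp was at 6.49 CPM in Tfh replicate 2, with the next at 2.98 CPM.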

How the results depend on the processing

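The fold changes of Mt1 and Mt2 in both Tfh comparisons kept their direction, and moved by less than the spread between libraries, in every alternative that gave a value. Mt3 had no count in Tfh libraries, so its direction there could not change in any alternative. Its values at the floor moved by less than that spread in every alternative that gave one. With the strict filter Mt3 and Slc30a2 were not fitted. Of the values for the 10 genes under alternatives, 775 moved by less than that spread and 2 by more, the counts of genes whose libraries did not overlap. That count was 3 to 4 in Tfh against Th17, 4 to 7 in Tfh against Th1 and 3 to 5 in Th17 against Th1 with single libraries left out. Of the other zinc transporters, 1 in place of 2 was called in Tfh against Th17 with DESeq2 size factors, library size alone, no filter, the strict filter or limma-voom, 0 with only the libraries of both conditions, and 1 to 2 with single libraries left out. The strict filter removed Slc30a2 and kept the call of Slc39a4, and with only the libraries of both conditions Slc30a2 was not fitted and Slc39a4 was not called. In Th17 against Th1, 7 in place of 4 were called with the GC correction and 2 to 5 with single libraries left out. Calls over all genes in Th17 against Th1 numbered 4647 in the main fit. They ran from 4090 to 6333 across the alternatives of processing and from 4098 to 5054 with single libraries left out. Over all genes, Tfh against Th17 gave 3379 calls with the GC correction in place of 2113. Mt4 was tested only with no filter, where it was called against Th1 in both comparisons. The causes of these shifts were not tested. The replicate numbers were not taken to pair the samples, since not every same-numbered pair correlated above 0.1: deviations of same-numbered libraries correlated from -0.102 to 0.57 (median 0.06), with 7 of 15 pairs over 0.1, among them all pairs of replicates 2 and 4, and those of other pairs from -0.516 to 0.615 (median -0.02), with 11 of 60 over 0.1. Not every library correlated best with its own number. The replicate block moved no such count by over 1.5 times except together with the GC correction, where Tfh against Th17 gave 3968 calls over all genes and 4 among the other transporters, and Th17 against Th1 gave 7. Counts below about 3 per library, 0.127 to 0.579 CPM, limit what can be said of Mt3, Mt4 and Slc30a2 in Tfh cells.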
